A study of Mus musculus with 8 samples.

Results

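Medial habenula marker genes were examined in ribosome-bound RNA of mu opioid receptor (MOR) expressing neurons from dissections of the paraventricular nucleus of the thalamus (PVT). The genes were chosen by name as the rows of the count table for Tac2, Gpr151, Pou4f1, Chrna3, Chrna5, Chrnb3, Chrnb4 and Slc5a7, which are 8 of the 18939 genes in the table. When a gene had several transcripts, the transcript with the highest total was used. Translating ribosome affinity purification (TRAP) pulls down ribosomes that carry a tagged L10a protein, so that the RNA they hold can be sequenced. All mice carried OPRM1cre, a Cre recombinase expressed from the Oprm1 locus, and EGFP-L10a, which is expressed from the Rosa26 locus once Cre has removed a stop cassette, on a C57Bl/6J background. The tag is therefore found in any cell that has made Cre at any time, and the gross dissection was not limited to a single nucleus. Control mice drank 0.2% saccharin and morphine mice drank morphine in the same solution over 11 days, starting at 0.3 mg/ml and ending at 0.5 mg/ml. Mice were 8 to 12 weeks of age at the start and were killed between 1200 and 1400 h. By the study's methods, each of the 8 libraries pooled the dissections of 2 mice of the same sex. By the labels, each group held 2 male libraries (control 1 and 2, morphine 3 and 4) and 2 female libraries (control 5 and 6, morphine 7 and 8).

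The medial habenula is a small epithalamic nucleus that lies beside the third ventricle, next to the PVT, and sends its axons through the fasciculus retroflexus to the interpeduncular nucleus. Its neurons express MOR densely, depend on the transcription factor Pou4f1 (Brn3a) for their identity, and release glutamate together with acetylcholine or with a tachykinin. It is among the brain sites richest in nicotinic acetylcholine receptors that contain the alpha3, beta4 and alpha5 subunits, which are known for their part in nicotine aversion and withdrawal.

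All 8 genes were detected in every library, at low to middling levels, and 0 of 8 were called between morphine and control. Control libraries held 37081348 to 43311793 counts in all and morphine libraries 31151103 to 47582947, and reads that are PCR copies are not marked, so counting error is a lower limit of the error. The library labelled control female 5 held counts of Ddx3y, Eif2s3y, Kdm5d and Uty, which are Y-linked, at 28.7% to 35.8% of the male mean. The other female libraries held at most 2 counts of each. The content of control 5 is therefore uncertain for all values that include it, and most of all for values by sex. Expression is given as CPM (counts scaled to a common library size) on TMM-normalized library sizes, differences are log2 changes of morphine over control with their standard error (SE) from edgeR's quasi-likelihood test, and a gene is called when its Benjamini-Hochberg adjusted P over all 18939 genes is under 0.05. Of all genes, 37 (0.195%) were called for morphine against control with edgeR and 502 (3.29% of the 15260 that DESeq2 gave an adjusted P) with DESeq2. Without adjustment, 2292 genes (12.1%) had a P under 0.05, and the groups did not overlap for 1239 genes (6.54%). By each tool 0 of the 8 marker genes were called, 1 of 8 (Slc5a7) had an unadjusted P under 0.05, and the ranges of the groups overlapped for all 8.

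Tac2 encodes neurokinin B, the tachykinin made by ventral medial habenula neurons as well as by other brain neurons, and lies on chromosome 10 (127724478 to 127731768, plus strand, GRCm38.p6). It was at 12.1, 14.7, 4.76 and 12.4 CPM in control libraries 1, 2, 5 and 6 and at 10.4, 7.14, 9.35 and 9.93 CPM in morphine libraries 3, 4, 7 and 8. Control 5 was the lowest library and control 2 the highest, and all 4 morphine libraries lay between them. The means were 11.0 ± 4.33 CPM in control and 9.21 ± 1.44 CPM in morphine (SD, n = 4), which is a log2 change of -0.26 (edgeR, SE = 0.28, adjusted P = 0.727). It was -0.52 without control 5 (edgeR, SE = 0.16, unadjusted P = 0.00707, adjusted P = 0.245) and -0.08 without control 2.

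Gpr151, an orphan G protein-coupled receptor that is found on habenular axons and their terminals, is a gene of 1 exon on chromosome 18 (42577881 to 42579652, minus strand). It was at 7.97, 9.90, 5.09 and 12.1 CPM in control and at 10.6, 6.36, 8.96 and 11.9 CPM in morphine, in the same order of libraries. The lowest and the highest library were both control libraries. The log2 change was 0.11 (edgeR, SE = 0.26, adjusted P = 0.888), and its sign turned when control 5 (-0.09) or morphine 8 (-0.02) was left out.

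Pou4f1, on chromosome 14 (104461675 to 104468118, minus strand), was at 19.1, 17.2, 23.4 and 26.7 CPM in control and at 23.2, 13.4, 18.5 and 21.0 CPM in morphine. It had the narrowest range of the 8 genes, with the highest library (control 6) 1.99 times the lowest (morphine 4). The means were 21.6 ± 4.26 CPM and 19.0 ± 4.21 CPM (SD, n = 4), which is a log2 change of -0.18 (edgeR, SE = 0.18, adjusted P = 0.693), -0.05 without morphine 4 and -0.29 without morphine 3.

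**Figure D1:**
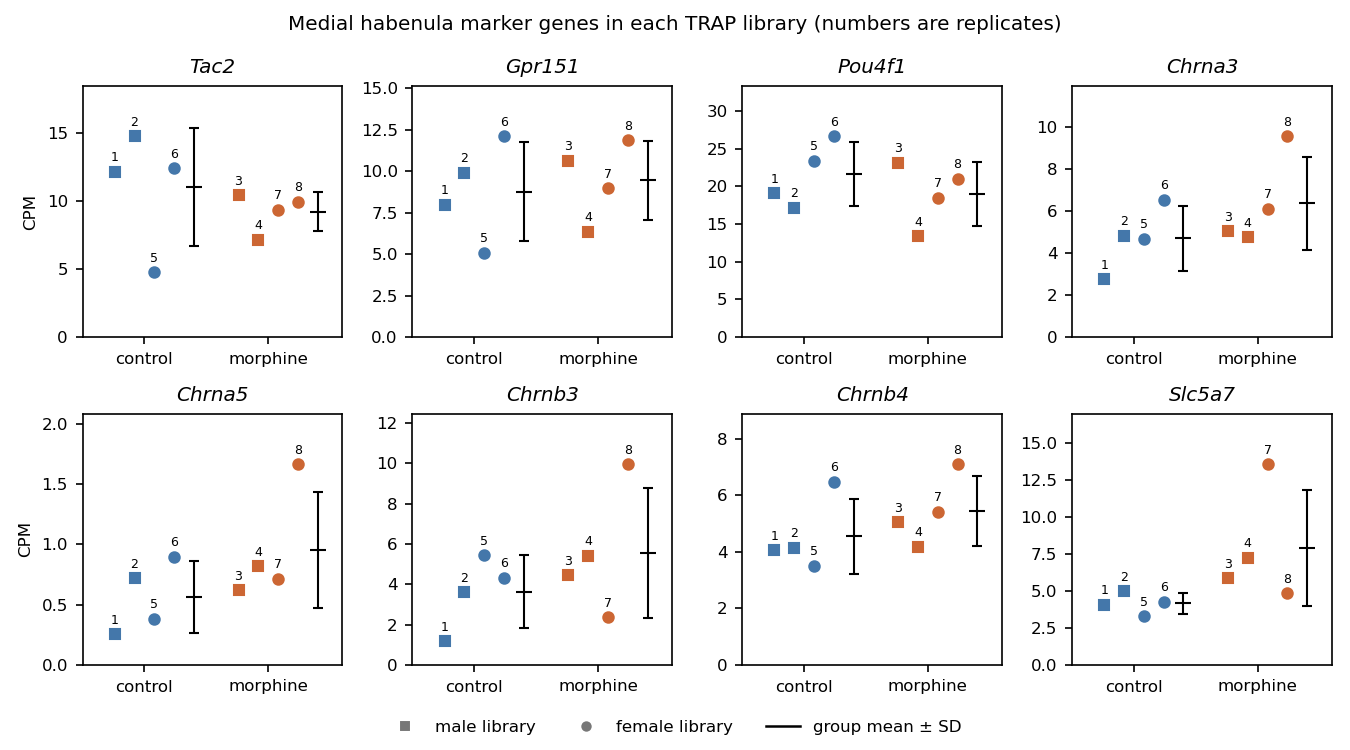
Level of each of the 8 medial habenula marker genes in CPM (y axis, from 0) in the 4 control and 4 morphine libraries (points, males and females marked apart), with the mean and SD of each group. The groups overlap for all 8 genes, and Slc5a7 in morphine female 7 (13.6 CPM) stands above the other libraries.

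The nicotinic receptor is a channel of 5 subunits, in which an alpha3 and beta4 core can take up alpha5 or beta3 as an accessory subunit. Chrna5, Chrna3 and Chrnb4 lie side by side within 68127 bases of chromosome 9 of GRCm38.p6: Chrna5 from 54980827 to 55011420 on the plus strand, Chrna3 from 55010117 to 55026562 on the minus strand and Chrnb4 from 55028154 to 55048953 on the minus strand. The RefSeq genes Chrna5 and Chrna3 overlap by 1304 bases on opposite strands, and the counting is not stated to use the strand. The exons of the counted transcripts share 0 bases in GENCODE models, but both values are uncertain to that extent. The sequence before an annotated transcript start of each gene of the cluster is shown because the 3 genes are neighbours and their covariation is measured further on, with 120 bases of RefSeq sequence written 5′ to 3′ on the gene's strand and the GC box (GGGCGG, on either strand) in capitals. The windows are chr9:54981368-54981487 (plus strand, before the downstream of 2 annotated starts) for Chrna5, chr9:55026563-55026682 (minus strand) for Chrna3 and chr9:55048545-55048664 (minus strand) for Chrnb4. The Chrna5 and Chrnb4 windows lie inside the RefSeq gene spans, as the spans reach further upstream than these starts.
Chrna5: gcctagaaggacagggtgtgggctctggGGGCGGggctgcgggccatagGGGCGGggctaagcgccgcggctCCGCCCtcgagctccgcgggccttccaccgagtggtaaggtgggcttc
Chrna3: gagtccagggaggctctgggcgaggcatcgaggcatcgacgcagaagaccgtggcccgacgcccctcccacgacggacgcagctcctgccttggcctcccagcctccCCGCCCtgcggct
Chrnb4: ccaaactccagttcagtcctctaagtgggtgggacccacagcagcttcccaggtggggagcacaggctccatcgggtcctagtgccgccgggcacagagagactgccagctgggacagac
The printed windows hold 3, 1 and 0 GC boxes, and the 120 bases before the upstream Chrna5 start (chr9:54980760-54980879) hold 0. Over the 250 bases before the start, 3 of the 7 promoters found for 6 of the marker genes held a GC box (those of Pou4f1, Chrna3 and the downstream Chrna5 start), against 32.7% of 32851 promoters in the table. The sequence ATAATTAAT, which POU4 factors bind, was in 0 of the 7 and in 0.259% of all promoters, TAATTA in 0 of 7 and 4.84%, and TATAAA in 1 of 7 (Slc5a7) and 12.4%. A match of letters is a description and not a binding site.

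Chrna3, the ligand-binding alpha3 subunit, was at 2.74, 4.82, 4.69 and 6.54 CPM in control libraries 1, 2, 5 and 6 and at 5.03, 4.75, 6.10 and 9.56 CPM in morphine libraries 3, 4, 7 and 8. Control 1 was the lowest library and morphine 8 the highest, with the other 6 between 4.69 and 6.54 CPM. The log2 change was 0.44 (edgeR, SE = 0.28, adjusted P = 0.576), and 0.17 without morphine 8.

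Chrna5, the accessory alpha5 subunit, was the lowest of the genes, at 10 to 81 counts per library. It was at 0.256, 0.720, 0.383 and 0.896 CPM in control and at 0.618, 0.817, 0.714 and 1.66 CPM in morphine. As for Chrna3, control 1 was lowest and morphine 8 highest. The log2 change was 0.78 (edgeR, SE = 0.43, adjusted P = 0.519), and 0.35 without morphine 8.

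Chrnb4, the beta4 subunit that pairs with alpha3, was at 4.05, 4.14, 3.51 and 6.49 CPM in control and at 5.06, 4.18, 5.42 and 7.11 CPM in morphine. Its 2 highest libraries were control 6 and morphine 8. The log2 change was 0.26 (edgeR, SE = 0.22, adjusted P = 0.677), 0.10 without morphine 8 and 0.46 without control 6.

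Chrnb3, the accessory beta3 subunit, lies apart from the cluster on chromosome 8 (27368711 to 27399730, plus strand). It was at 1.18, 3.60, 5.45 and 4.32 CPM in control and at 4.44, 5.42, 2.37 and 9.97 CPM in morphine. Its highest library was 8.45 times its lowest, the widest spread of the 8 genes. The log2 change was 0.62 (edgeR, SE = 0.46, adjusted P = 0.631), 0.31 without control 1 and 0.17 without morphine 8. The oligodendrocyte markers (Mbp, Mog, Mag, Mobp and Cnp), with 0 of 5 called, also had their lowest summed level in control 1 (89.0 CPM) and their highest in morphine 8 (905 CPM), with 262 to 853 CPM in the other libraries. The choroid plexus markers likewise ran from 24.5 CPM in control 1 to 668 CPM in morphine 8, their lowest and highest libraries. The part of these cells in the nicotinic values was not tested.

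Slc5a7 encodes the high-affinity choline transporter that returns choline to cholinergic terminals, and lies on chromosome 17 (54273590 to 54299038, minus strand). It was at 4.08, 5.00, 3.30 and 4.26 CPM in control libraries 1, 2, 5 and 6 and at 5.87, 7.24, 13.6 and 4.83 CPM in morphine libraries 3, 4, 7 and 8. 3 of the 4 morphine libraries lay above every control library, and morphine 8 lay below control 2. The means were 4.16 ± 0.697 CPM in control and 7.88 ± 3.92 CPM in morphine (SD, n = 4), which is a log2 change of 0.92 (SE = 0.29) that did not pass the threshold (edgeR unadjusted P = 0.00888, adjusted P = 0.235; DESeq2 adjusted P = 0.057). The exact two-sided permutation test on log2(CPM + 0.5) gave P = 0.0571 over the 70 arrangements of the libraries, of which the smallest possible value is 0.0286, and P was 0.257 to 0.714 for the other 7 genes. The log2 change was 0.50 without morphine 7 and 1.09 at most when another library was left out. Within each sex both morphine libraries lay above both control libraries, which held in the same direction for 1980 of all genes (10.5%). Slc5a7 was the only 1 of the 8 for which it held.

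The other acetylcholine genes were measured beside it. Chat, which makes acetylcholine, was at 3.74, 3.80, 4.02 and 3.31 CPM in control and at 2.78, 7.78, 15.9 and 2.73 CPM in morphine. Only morphine 4 and morphine 7 were above the control range, and the other 2 morphine libraries were below it. Slc18a3, the vesicular acetylcholine transporter, was at 0.692, 1.46, 0.932 and 0.977 CPM in control and at 1.38, 2.12, 2.92 and 1.71 CPM in morphine. The log2 changes were 0.97 for Chat (edgeR, SE = 0.48, adjusted P = 0.457) and 0.99 for Slc18a3 (edgeR, SE = 0.30, unadjusted P = 0.0068, adjusted P = 0.215; DESeq2 adjusted P = 0.0616). For Chat the log2 change was 0.23 without morphine 7. Slc18a3 lies inside the Chat gene on the same strand, so reads of the pair may be split uncertainly. Ache, the esterase that breaks down acetylcholine, was highest in control 2 (103 CPM) and had a log2 change of 0.11 (edgeR, SE = 0.27, adjusted P = 0.891), -0.12 without morphine 8 and 0.47 without control 2.

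The dopamine receptor gene Drd2, which is expressed in the PVT and in the striatum, was also highest in the libraries with the most Slc5a7 and Chat, at 76.7 CPM in morphine 4 and 55.6 CPM in morphine 7 and at 10.6 to 34.5 CPM in the others. Isl1, a transcription factor of both habenular and striatal cholinergic neurons, was highest in morphine 7 (14.9 CPM) and lowest in morphine 8 (1.11 CPM). In morphine 4, the other library high in Chat and Drd2, it was at 10.3 CPM, inside the control range of 9.25 to 12.6 CPM. In morphine 3 it was at 5.59 CPM. The part of cells from outside the habenula in the values of Slc5a7 and Chat was not tested.

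**Figure D2:**
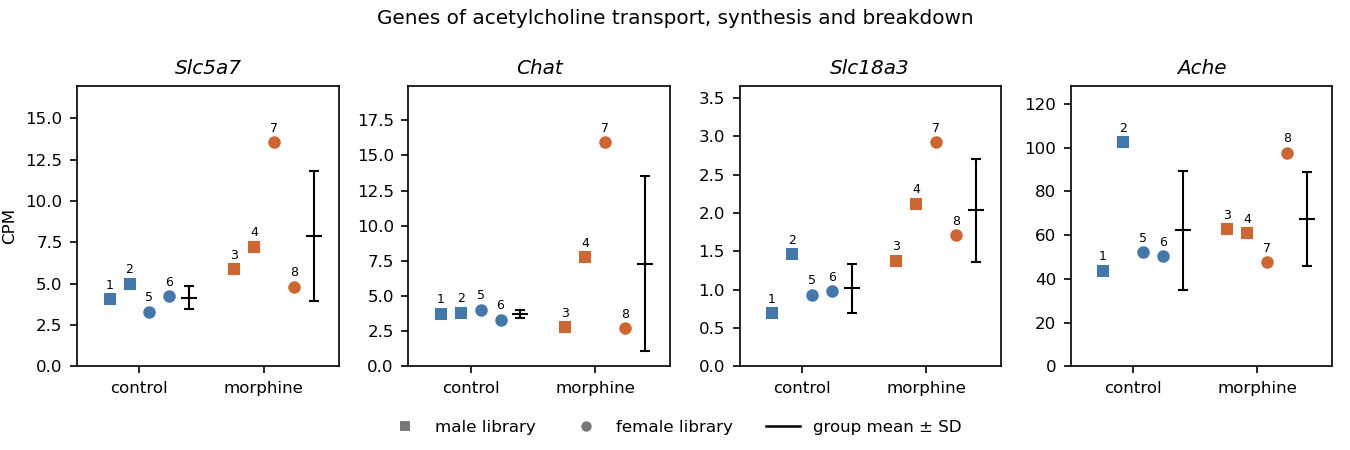
Levels of Slc5a7, Chat, Slc18a3 and Ache in CPM (y axis, from 0) in each library (points) with the mean and SD of each group. Slc5a7 and Chat are highest in morphine 7, at 13.6 and 15.9 CPM, whereas Ache overlaps fully between the groups.

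Levels of the 8 genes were compared per kilobase of the counted transcript (CPM per kb, mean of 8 libraries). Tac2 was the highest at 11.9 CPM per kb, at the 69.8th percentile of the 18497 genes with a length, followed by Gpr151 (5.14 CPM per kb), Pou4f1 (4.57), Chrnb3 (2.04), Chrnb4 (1.34), Chrna3 (1.27), Slc5a7 (1.16) and Chrna5 (0.404 CPM per kb, 30.3rd percentile). Tac2 was above Gpr151, Pou4f1 above Chrnb3 and Slc5a7 above Chrna5 in 8 of 8 libraries, and Gpr151 was above Pou4f1 in 7 of 8. The order from Chrnb3 to Slc5a7 was not the same in all libraries: Chrnb3 was above Chrnb4 in 6, Chrnb4 above Chrna3 in 6 and Chrna3 above Slc5a7 in 5 of 8. The order of these neighbours is therefore uncertain, and differences between genes were not tested. Among the midline thalamus genes, Calb2, a calcium-binding protein of the PVT and of the habenula, stood at 312 CPM per kb, Tcf7l2 at 282, the glutamate transporter gene Slc17a6 at 67.9 and Gbx2, a transcription factor of the thalamus, at 26.1 CPM per kb. All 8 habenula markers lay below these, and the cholinergic genes Chat and Slc18a3 were at 1.93 and 0.631 CPM per kb. In these samples the number of habenular cells, the RNA of each gene per cell and RNA from cells outside the habenula cannot be told apart.

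**Figure D3:**
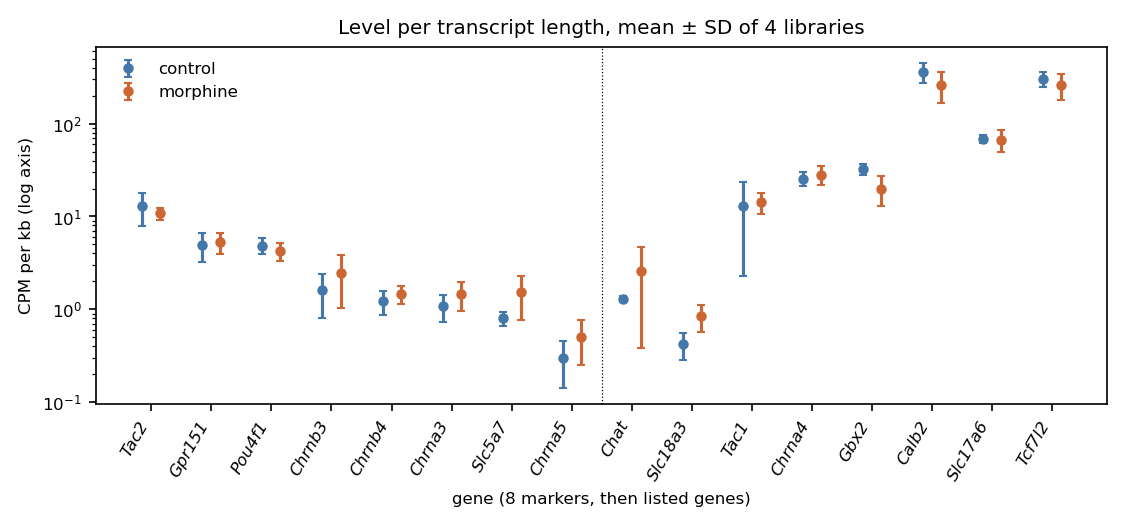
Level in CPM per kb of transcript (y axis, log scale) of the 8 marker genes, left of the dotted line, and of Chat, Slc18a3, Tac1, Chrna4, Gbx2, Calb2, Slc17a6 and Tcf7l2, as the mean (points) and SD (bars) of the 4 control and the 4 morphine libraries. Averaged over all 8 libraries, the marker genes run from 11.9 (Tac2) down to 0.404 (Chrna5), and Calb2 is at 312.

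Covariation of the 8 genes over the 8 libraries was measured on log2 CPM for their 28 pairs. Pearson r was above 0 for 23 pairs and below 0 for 5, with a median of 0.26 and a range from -0.46 (Pou4f1 with Slc5a7) to 0.92. With Benjamini-Hochberg adjustment over the 28 pairs 0 passed on r (7 without adjustment), and 1 passed on Spearman rho. That pair was Chrna3 with Chrnb4 (rho = 0.952, exact permutation adjusted P = 0.0319; r = 0.80, adjusted P = 0.0972; r = 0.914 without the 2 libraries farthest from the median).

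A further 6 pairs had an unadjusted exact P on r under 0.05. Chrna3 with Chrna5 had r = 0.92 (exact permutation P = 0.00476, adjusted P = 0.0972; rho = 0.786, P = 0.0279), and r = 0.533 without control 1 and morphine 8. Chrna5 with Chrnb4 had r = 0.78 (exact permutation adjusted P = 0.114; r = 0.683 without those farthest). Gpr151 with Chrnb4 had r = 0.83 (exact permutation adjusted P = 0.0972, rho = 0.81; r = 0.793 without the farthest 2) and Tac2 with Gpr151 had r = 0.80 (exact permutation adjusted P = 0.114, rho = 0.643; r = 0.548 without control 5). For Chrnb3 with Chrna3 (r = 0.77) and with Chrna5 (r = 0.75) the sign turned without control 1 and morphine 8 (-0.553 and -0.294), so those relations rest on these 2 libraries. Set against the mean of the 8 genes, of which each is a part, r was 0.944 for Chrnb4, 0.881 for Chrna3, 0.876 for Chrna5 and 0.853 for Gpr151, but 0.515 for Chrnb3, 0.418 for Tac2, 0.330 for Pou4f1 and 0.253 for Slc5a7.

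A further 3 pairs were chosen after their values were seen. Chrna6, the alpha6 subunit gene, lies 3481 bases from Chrnb3 on chromosome 8 and was at 0.282, 3.06, 5.26 and 0.977 CPM in control and 3.65, 5.48, 0.714 and 8.55 CPM in morphine libraries. Its r with Chrnb3 was 0.91 (rho = 0.952; r = 0.790 without control 1 and morphine 8). Slc5a7 had r = 0.88 with Slc18a3 (rho = 0.881; r = 0.826 without the farthest 2) and r = 0.83 with Chat (rho = 0.357), where r was 0.424 without morphine 7 and the relation rests on that library. As the pairs were picked for their values, these are descriptions with no test.

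**Figure D4:**
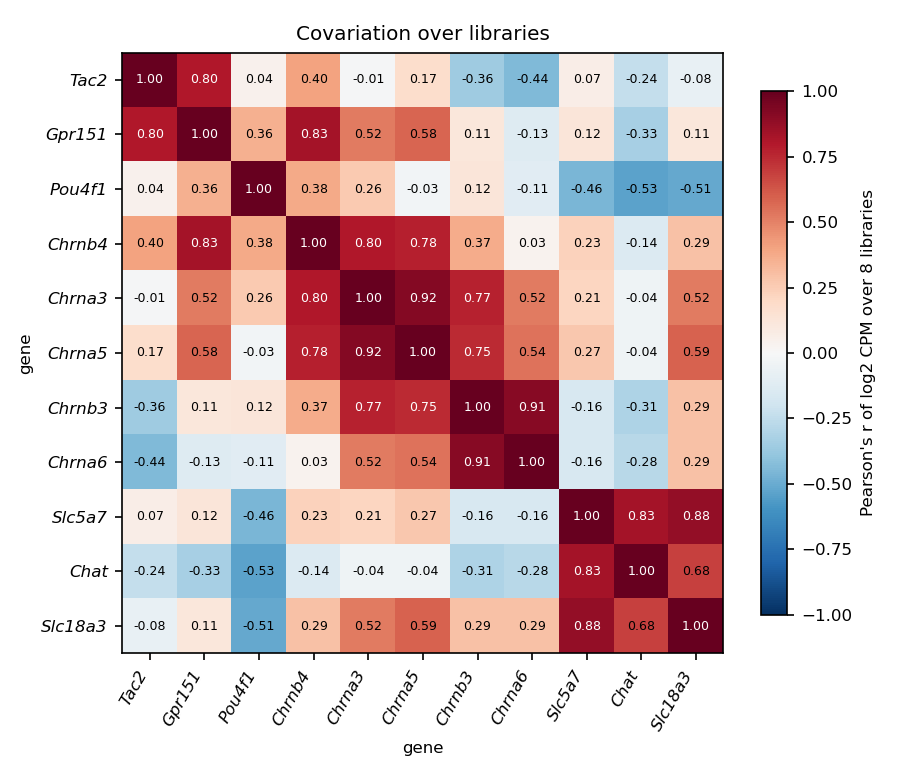
Pearson r of log2 CPM over the 8 libraries (colour, from -1 to 1) between the 8 marker genes and Chrna6, Chat and Slc18a3. Chrna3, Chrna5 and Chrnb4 form a group of high r (0.78 to 0.92) with Gpr151 joining Chrnb4 (0.83), and Slc5a7 pairs with Chat and Slc18a3.

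The 10 genes outside the set whose log2 CPM followed the mean of the 8 most closely (10732 genes with a mean of at least 5 CPM, 8 libraries) were Tmem138 (r = 0.927), Cyp4x1 (0.925), Slc25a20 (0.920), Vmn2r29 (0.909), Grm2 (0.883), Pcsk2 (0.882), Epha5 (0.882), Tmem74 (0.881), Sema4d (0.870) and Prph (0.867). They are the top of many correlations over 8 libraries and carry no test. Vmn2r29 belongs to a large family of near copies and is uncertain.

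Between female and male libraries, with condition in the model, 1 gene of all (0.00528%) was called with edgeR and 587 (3.1%) had an unadjusted P under 0.05. Of the 8 markers 0 were called, and Chrna3 was 1 of 8 with an unadjusted P under 0.05: 6.72 ± 2.05 CPM in females and 4.34 ± 1.07 CPM in males (SD, n = 4), a log2 difference of 0.62 (edgeR, SE = 0.21, unadjusted P = 0.0129). All 5 oligodendrocyte markers also had an unadjusted P under 0.05 in this comparison, with log2 differences of 0.86 to 1.57 (higher in females, 0 called), and their part in the Chrna3 difference was not tested. The other differences ran from -0.26 (Tac2) to 0.67 (Chrnb3). For the interaction of sex and morphine 0 genes (0%) were called with edgeR and 325 (1.72%) had an unadjusted P under 0.05. Of the 8 markers 0 had one, and the lowest P was 0.148, for Tac2 (0.79, standard error 0.51).

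Among the other nicotinic subunits (11 tested) 0 were called with edgeR, and 7 lay above 0 and 4 below with a median log2 fold change of 0.15, against a median of 0.01 over all genes. Chrna1, the muscle-type alpha1 subunit, was the 1 with an unadjusted P under 0.05, at 7, 4, 6 and 3 counts in control and 13, 15, 17 and 31 counts in morphine (log2 fold change 2.00, edgeR, SE = 0.38, adjusted P = 0.0642; DESeq2 adjusted P = 0.0106). Chrna9 had the lowest log2 change, at 0 to 3 counts per library. Chrna4, the subunit of the common brain receptor, was at 117 ± 19.7 CPM in control and 129 ± 29.9 CPM in morphine (SD, n = 4), with a log2 change of 0.15 (-0.02 without morphine 8). The tachykinin genes other than Tac2 (5 tested) had 0 called and 0 with an unadjusted P under 0.05, with Tac1, which encodes substance P in dorsal habenular neurons, at a log2 change of 0.13 with control 2 at 35.9 CPM far above the other 3 control libraries (9.08 to 9.86 CPM), and at 0.90 without control 2. The 8 markers themselves had a median log2 fold change of 0.35, with 6 above 0 and 2 below (9735 above and 9204 below over all genes). Their summed level was 50.6 to 73.7 CPM in control and 49.3 to 75.9 CPM in morphine.

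Other genes named for the medial habenula (16 tested) had 0 called with edgeR and 3 with an unadjusted P under 0.05, namely Slc18a3, Nr4a2 and Slc17a7. The lowest log2 change was that of Ecel1, a metallopeptidase gene (-0.81, edgeR, SE = 0.37, adjusted P = 0.422). Nr4a2 (Nurr1), an orphan nuclear receptor of the medial habenula, was at 0.44 (edgeR, SE = 0.19, adjusted P = 0.367). Of 7 other Pou4 and habenular transcription factors, among them Nr4a2, 0 were called, 2 lay above 0 and 5 below, and the lowest was Pou4f3 (-0.80, at 1 to 24 counts). Slc17a7, a vesicular glutamate transporter of the habenula and of cortical and hippocampal neurons, was at 121 ± 50.5 CPM in control and 267 ± 88.3 CPM in morphine (SD, n = 4; log2 fold change 1.15, edgeR, SE = 0.29, adjusted P = 0.142; DESeq2 adjusted P = 0.0048). It also stands in the list of telencephalic pyramidal neurons, of which 12 of 12 lay above 0, 2 (Bhlhe22, 1.13, and Itpka, 1.70) were called with edgeR and 6 of 12 with DESeq2, a further 6 (Neurod6, Neurod2, Neurod1, Emx1, Slc17a7 and Lmo4) had an unadjusted P under 0.05 and the summed level was 436 to 764 CPM in control and 834 to 1136 CPM in morphine. The choroid plexus, which borders the habenula, had 0 of 13 markers called with edgeR (9 of 13 with DESeq2) and 12 (all but Otx2) with an unadjusted P under 0.05, from Sostdc1 (0.78) to Ttr (3.36), and a summed level of 24.5 to 140 CPM in control and 207 to 668 CPM in morphine. Of the glial lists, 0 of 6 astrocyte markers (10.2 to 43.2 CPM in control, 21.0 to 40.9 CPM in morphine) and 0 of 6 microglia markers (0.885 to 5.76 and 1.88 to 3.19 CPM) were called or had an unadjusted P under 0.05. The part of these cells in the values above was not tested. The midline thalamus genes lay below 0 in 12 of 13 (median -0.22, 0 called, Drd2 the highest at 0.87), against 9204 of all 18939 genes. Gbx2 was at 68.9 ± 9.51 CPM in control and 42.7 ± 15.3 CPM in morphine (SD, n = 4, edgeR adjusted P = 0.227). Without morphine 4 the log2 change of Gbx2 went from -0.69 to -0.53 and that of Calb2 from -0.47 to -0.27. Tcf7l2 was then at -0.09 and Slc17a6 at 0.08. The lateral habenula genes (5 tested) had 0 called, with unadjusted P under 0.05 for Chrm3 (0.50) and Gap43 (-0.31).

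**Figure D5:**
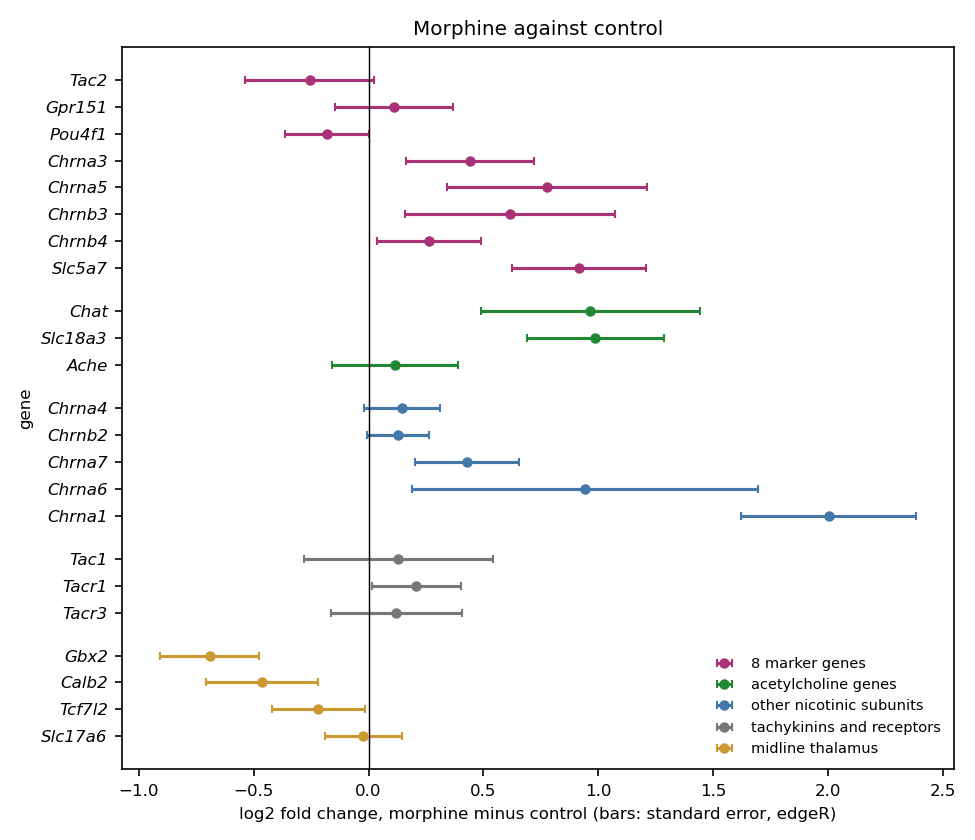
Log2 fold change of morphine over control with its standard error (edgeR) for the 8 marker genes, 3 acetylcholine genes, 5 other nicotinic subunits, Tac1 with 2 tachykinin receptors, and Gbx2, Calb2, Tcf7l2 and Slc17a6 of the midline thalamus (x axis, log2 units; points, estimates; bars, standard errors). Slc5a7 (0.92) is highest of the markers and Tac2 (-0.26) lowest, and none of the 8 passed the adjusted threshold.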

How the data were processed

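The authors deposited a table of integer counts of reads, 1 row per RefSeq transcript, for 8 TRAP-Seq libraries of PVT dissections, without normalization; the submitters' notes name DESeq2 and mm10. The study's methods describe Salmon on an mm10 index with tximport and a gene-level matrix, whereas this table lists transcripts, so the tool and strand setting behind it are not given in the sources used here. The table has 8 columns of libraries, and 0 of its columns had no sample. Groups came from the labels. A library is a pool of 2 mice, so P values measure the spread between pools. The members and lists were chosen with earlier results of these data known. Of several transcripts of a gene, that with the largest sum was kept, which left 18939 genes.

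Counts were fitted whole with edgeR 4.0.16 in R 4.3.3 (TMM factors, quasi-likelihood test, condition in the model, and sex or its product with condition for the comparisons by sex), with Benjamini-Hochberg adjustment over all genes tested. Alternatives were DESeq2 1.42.0, limma-voom (limma 3.58.1), RLE and upper-quartile factors, filterByExpr, sex in the model, the sum over transcripts and each library left out. Single genes were also tested by exact two-sided permutation on log2(CPM + 0.5), and correlations on log2 CPM with a prior count of 2. The fits were tested on simulated data. Lengths came from GENCODE transcripts, and positions and promoters from RefSeq (GRCm38.p6). The genes named are the 8 markers, the listed genes with an unadjusted or adjusted P under 0.05 (for choroid plexus as a count), the defining genes Chat, Slc18a3, Tac1, Calb2, Gbx2 and Slc17a6, the extremes of the lists, and the 10 genes most like the mean of the 8. The extremes of the tachykinin, astrocyte and microglia lists and the lowest pyramidal neuron gene are not named. Isl1, Ache, Chrna4, Chrna6 and Tcf7l2 were added after their values were seen. The listed genes Chrng and Nwd2 were not analysed here. A further 2 listed genes are not reported here and were left out of their lists.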

Additional observations from a re-analysis of the deposited data

Results flagged for a closer look

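In the control group, 1 library stood far from the other 3 for Tac1 and Ache, and it was control 2 for both. Tac1, the substance P gene, was at 35.9 CPM there and at 9.08 to 9.86 CPM in the other control libraries. Ache was at 103 CPM there and at 43.7 to 52.2 CPM in the others. Other listed genes held such a library too, among them Neurod6 and Emx1, for which it was control 6. Neurod6 was at 13.7 CPM in control 6 and at 1.51 to 3.17 CPM in the other control libraries. Emx1 was at 3.26 CPM in control 6 and at 0.315 to 0.765 CPM in the others. By chance about 1 in 20 groups holds such a library. The number of groups searched is not given here, so these genes cannot be set against that share. None of the 8 marker genes held one in either group by the same measure.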

How the results depend on the processing

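No paired analysis was possible because the control and morphine libraries share no replicate numbers. The count of 0 called markers held under all alternatives run (15 per gene, lowest adjusted P 0.057, DESeq2 for Slc5a7). For all genes, morphine against control called 37 with edgeR, 502 with DESeq2, 14 with filterByExpr, 23 with limma-voom, 110 with sex in the model and 22 with the sum over transcripts, and 0 to 77 with each library left out in turn. It called 0 without morphine 4 (1696 with an unadjusted P under 0.05) or without morphine 8 (1664), and 1 without control 1 (1433). Female against male called 1 gene, 21 with DESeq2, 0 with filterByExpr (495 unadjusted) and 0 to 5 with each library left out. The interaction called 0 with edgeR and 4 with DESeq2. The direction turned for Gpr151 between conditions without control 5 (-0.092) or morphine 8 (-0.019), within a range of -0.092 to 0.28 over the libraries left out. Between sexes it turned for Tac2 without control 5 (0.024; range -0.47 to 0.024), for Gpr151 without control 6 (-0.12), morphine 4 (-0.045) or morphine 8 (-0.0047; range -0.12 to 0.34), and for Slc5a7 without morphine 3 (-0.024) or morphine 7 (-0.34; range -0.34 to 0.30). The cause was not tested. Of the 8 markers, depth limits Chrna5 most, at 10 to 81 counts per library, and of the other genes named Chrna9 (0 to 3), Pou4f3 (1 to 24) and Chrna1 (3 to 31) hold fewer.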
